A study of Mus musculus with 11 samples.

Results

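The genes described here encode lysosomal enzymes, lysosomal membrane proteins, subunits of the lysosomal proton pump and transcription factors of the TFEB family. They were taken as a list of 38 gene symbols, of which 37 were rows of a table of 26061 genes. The missing symbol was Tfe3, a relative of TFEB. The table holds Tcfe3, an older symbol of Tfe3 according to RefSeq, and its values are given beside the list but not counted with it. All 37 genes were among the 12486 that passed the filter on low values (at least 2 libraries at least 1 log2 unit above the value that stands for 0 reads). By role they are 10 cathepsins and other proteases, 7 glycosidases, 7 lipid enzymes and lipid carriers, 7 membrane proteins counted together with granulin, 5 genes of the proton pump and 1 transcription factor.

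The study asked what depletion of TET2, a dioxygenase that acts on methylated cytosines in DNA, does to the inflammatory response of microglia. Poly-A RNA was measured in the mouse line BV2, which was derived from microglia and grows indefinitely in culture. All cells had received an siRNA with Lipofectamine 3000, either a non-targeting control (siScr) or siRNA against Tet2 (siTet2), and none were left untransfected. At 48 h after transfection the serum in the medium went from 10% to 5%, and cells were left untreated (Ctrl) or given lipopolysaccharide (LPS), a component of bacterial outer membranes, at 1 µg/ml for 3 h. There were 3 libraries each of siScr_Ctrl, siScr_LPS and siTet2_Ctrl cells and 2 of siTet2_LPS cells, numbered 2 and 3. A single cell line is a limited model of microglia, and the labels do not say whether libraries of a group came from separate cultures, so p-values measure only the spread between these libraries.

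Lysosomes are acidic organelles that break down proteins, glycans, lipids and engulfed material, which is a main task of microglia as phagocytes of the brain. A proton pump of the V-ATPase type, built from a membrane sector (V0) and a cytosolic sector (V1), keeps the lumen acidic, and most of the hydrolases work only at acid pH. The transcription factor TFEB, encoded by the gene listed in the table under its older symbol Tcfeb, drives many lysosomal genes through a CLEAR element, an E-box with the core CACGTG that is often extended to TCACGTGA, and is held in the cytosol by mTORC1 when nutrients are plentiful.

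The promoters were read for that element because it is the element through which TFEB is known to act on lysosomal genes. The search covered the 250 bases before each start site in RefSeq promoters (GRCm38.p6) and found entries for 31 of the 37 genes. TCACGTGA and CACGTG each equal their own reverse complement, so a match counts for both strands, and every TCACGTGA also contains CACGTG. TCACGTGA stood before a start site of 5 of the 31 genes (16.1%) and of 245 of 27025 genes in the table of promoters (0.907%). CACGTG stood in 10 of 31 (32.3%), the same 5 included, and in 1854 of 27025 (6.86%). The other 5 genes with CACGTG were Ctsl, Lgmn, Gaa, Glb1 and Lamp1. The 5 genes with TCACGTGA were Ctsa, Ctsd, Gla, Mcoln1 and Atp6v1a, chosen for print because they hold it, and the stretches below show each match in capitals with up to 20 bases on either side, 5′ to 3′ on the strand of the gene. Gla, the gene of alpha-galactosidase A, held it at 2 places. Matches are a description of the letters and not evidence of binding.
Ctsa, chr2:164833740-164833772, plus strand, 13 to 6 bases before the start: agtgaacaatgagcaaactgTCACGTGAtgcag
Ctsd, chr7:142387899-142387946, minus strand, 99 to 92 bases before the start: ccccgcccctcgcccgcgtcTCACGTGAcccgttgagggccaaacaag
Gla, chrX:134601206-134601253, minus strand, 228 to 221 bases before the start: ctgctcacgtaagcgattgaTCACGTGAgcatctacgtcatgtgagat
Gla, chrX:134601173-134601220, minus strand, 195 to 188 bases before the start: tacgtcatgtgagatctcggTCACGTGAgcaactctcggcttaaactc
Mcoln1, chr8:3500453-3500500, plus strand, 46 to 39 bases before the start: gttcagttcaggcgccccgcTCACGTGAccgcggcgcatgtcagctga
Atp6v1a, chr16:44139364-44139411, minus strand, 132 to 125 bases before the start: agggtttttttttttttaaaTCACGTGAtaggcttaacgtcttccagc

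Libraries held 8739716 to 23030426 reads on genes, with a median of 18844761. All 10 markers of microglia and macrophages were detected, but the homeostatic microglial genes P2ry12, Tmem119 and Cx3cr1 lay between 1.07 and 148 normalised reads (reads divided by the size factor of the library). Of 17 markers of other brain, vessel and immune cells 3 passed the filter, the highest reached 43.5 normalised reads in any library, and 4 had no reads in any library, among them the oligodendrocyte genes Mog and Olig2. Tet2 itself had 1971, 2379 and 1811 normalised reads in siScr_Ctrl, 10317, 16649 and 14637 in siScr_LPS, 1441, 1971 and 1648 in siTet2_Ctrl, and 7901 and 9159 in siTet2_LPS. The untreated groups overlapped for Tet2 and the LPS-treated groups did not, and the mean with Tet2 siRNA was 82.1% of the control in untreated cells and 61.5% in LPS-treated cells. Neither difference passed limma's test (log2 difference of -0.28 and adjusted p = 0.566, and of -0.67 and adjusted p = 0.165).

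The 37 genes were abundant in these cells. Together they took 3.01% ± 0.278 (SD, n = 3) of all reads in siScr_Ctrl, 2.61% ± 0.302 (SD, n = 3) in siScr_LPS, 2.39% ± 0.617 (SD, n = 3) in siTet2_Ctrl and 1.90% ± 0.537 (SD, n = 2) in siTet2_LPS. By library the share was 3.12%, 2.69% and 3.22% in siScr_Ctrl, 2.96%, 2.41% and 2.46% in siScr_LPS, 3.00%, 1.76% and 2.42% in siTet2_Ctrl, and 1.52% and 2.28% in siTet2_LPS. The lowest share, in replicate 2 of siTet2_LPS, had a Wilson interval of 1.52% to 1.53%, and the highest, in replicate 3 of siScr_Ctrl, one of 3.21% to 3.23%; such intervals are at 95% and cover counting error only. The groups overlapped, apart from siTet2_LPS lying below both control siRNA groups, and the library numbered 2 was the lower or lowest of each Tet2 siRNA group. A share of all reads also moves with the RNA of other genes. In the log2 values, which are scaled by size factor, the median LPS difference of the 37 genes in control siRNA cells was 0.02.

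Per kilobase of the longest coding transcript, Ctsz stood highest. This gene of cathepsin Z, a carboxypeptidase, had a level of 24400 normalised reads per kilobase over the 4 group means, which ranged from 18039 to 35360. Ctss, an elastase-like cathepsin used in antigen processing, followed at 15042 (12875 to 18514). Cd68, a heavily glycosylated membrane protein that marks phagocytes, stood at 12651 (8966 to 18536). Psap, the precursor of the saposins that help lipid hydrolases, stood at 12480 (8341 to 14838), and Ctsb, the cysteine protease cathepsin B, at 11941 (9247 to 15849). The ranges of group means of these last 4 genes overlapped, so their order is not resolved. The range of Ctsz also overlapped those of Ctss and Cd68, though its mean was the highest of the list in each of the 4 groups. At the other end were Mcoln1, a calcium channel of the lysosomal membrane, with 401 per kilobase, Tcfeb with 79.7, and Smpd1, acid sphingomyelinase, with 71.9.

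**Figure D1:**
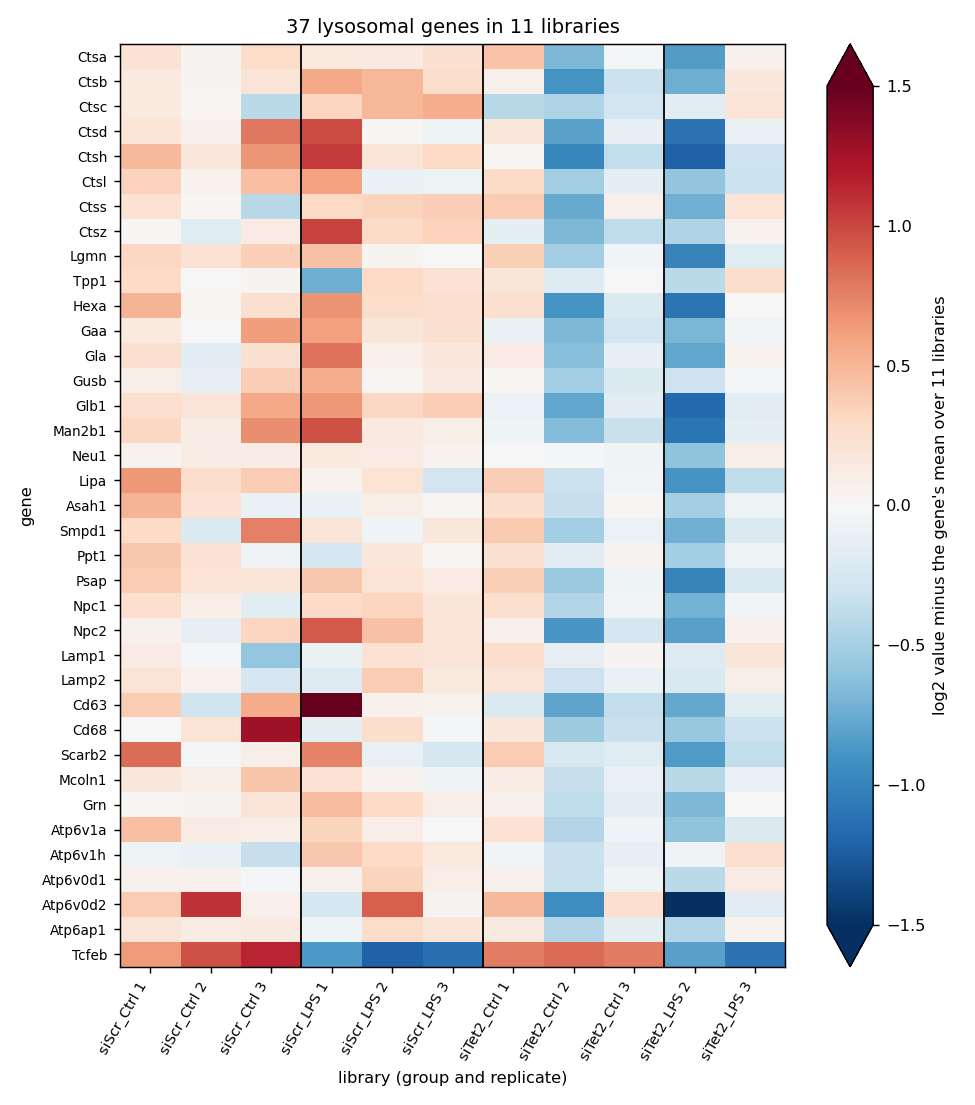
Colour shows, for each of the 37 genes (rows) in each of the 11 libraries (columns), the log2 value minus the mean of that gene over all libraries, cut off at 1.5 in either direction. The columns of replicate 2 of siTet2_Ctrl and replicate 2 of siTet2_LPS are blue for most genes, and Tcfeb is blue in all 5 LPS-treated libraries.

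Libraries differed among themselves in these genes more than in most. The median gene of the list spanned 1.31 log2 units from its lowest to its highest library, against 1.08 over all genes kept. The widest spans were those of Atp6v0d2 (2.91), a V0 subunit common in macrophages and osteoclasts, Tcfeb (2.35), Cd63 (2.34), a tetraspanin of late endosomes, and Ctsh (2.26), an aminopeptidase. The narrowest were those of Lamp2 (0.69), a major glycoprotein of the lysosomal membrane, and Atp6ap1 (0.72), an accessory subunit of the pump. Replicate 2 of siTet2_LPS was the lowest of all 11 libraries for 24 of the 37 genes, against 12.6% of all genes kept, and replicate 2 of siTet2_Ctrl for a further 9, against 12.8%. These 2 libraries were the 2 lowest for 27 of the 37 genes, against 8.46% of all genes kept. Replicate 1 of siScr_LPS was the highest library for 17 of the 37, against 16.7% of all genes kept. Values without each of these libraries are given beside the Tet2 siRNA results.

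LPS lowered the RNA of the TFEB gene itself and left few of the enzymes and membrane proteins past the test in either direction. In control siRNA cells Tcfeb had 261, 333 and 381 normalised reads without LPS and 73.6, 52.0 and 56.4 with it. All 3 LPS-treated libraries lay far below all 3 untreated ones, at 18.7% of the untreated mean. The log2 difference was -1.98 (SE 0.18, adjusted p = 4.957e-06, limma over all genes kept). In Tet2 siRNA cells the same gene had 288, 306 and 289 normalised reads without LPS and 76.4 and 57.5 with it, again with no overlap. That fall, to 22.8% of the untreated mean, was -1.76 on the log2 scale (SE 0.21, adjusted p = 7.004e-05, limma). Tcfeb was lower at the adjusted threshold of 0.05 in both siRNA groups under all 21 alternative settings. Both LPS responses come from different libraries, and their difference for Tcfeb was 0.22 (SE 0.28, adjusted p = 0.9997, limma).

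Of the 37 genes 3 passed the test with LPS in control siRNA cells, against 23.7% of all genes kept. Beside Tcfeb, 2 genes passed as higher, where 13.2% of all genes kept did, and no other passed as lower, where 10.4% did. Ctsc, the gene of cathepsin C, a dipeptidyl peptidase that activates serine proteases, had 7278, 6667 and 4947 normalised reads without LPS and 8183, 9295 and 9621 with it. The groups did not overlap, the log2 difference was 0.53 (SE 0.17, adjusted p = 0.0406, limma) and the LPS mean was 143% of the untreated mean. Atp6v1h, which encodes the V1 subunit H of the pump, had 2393, 2343 and 1977 normalised reads without LPS and 3352, 3096 and 2798 with it. These groups did not overlap either, and the log2 difference was 0.46 (SE 0.15, adjusted p = 0.045, limma).

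Both calls lay close to the threshold. The Ctsc call ended in 14 of 21 alternative settings (difference 0.07 to 0.65, adjusted p 0.0298 to 0.817, limma) and the Atp6v1h call in 13 (0.20 to 0.52, adjusted p 0.0397 to 0.404). Leaving out replicate 3 of siScr_Ctrl, the lowest of its group for both genes, gave 0.37 for each gene (limma, adjusted p = 0.118 for Ctsc and 0.11 for Atp6v1h).

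**Figure D2:**
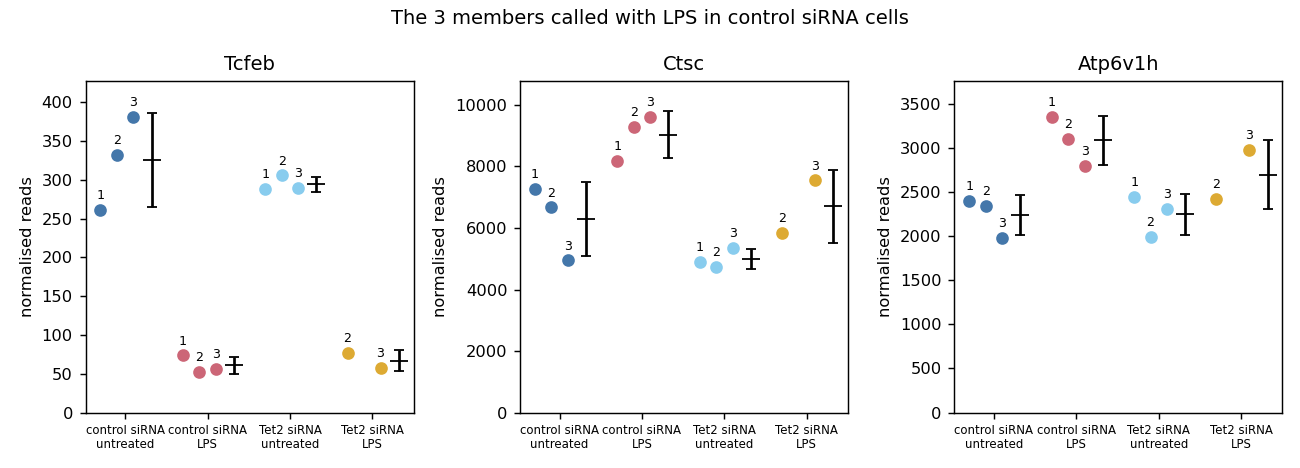
Points are normalised reads of Tcfeb, Ctsc and Atp6v1h in each library, labelled with the replicate number, and bars give the group mean and SD (n = 3, and n = 2 for siTet2_LPS). Tcfeb fell from a mean of 325 to 60.7 in control siRNA cells and from 294 to 67.0 in Tet2 siRNA cells, and the ranges of Ctsc and Atp6v1h with LPS lie above those without it in control siRNA cells.

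Among the proteases in control siRNA cells, LPS-treated and untreated ranges were apart for 4 cathepsins, all higher with LPS: Ctsb, Ctsc, Ctss and Ctsz. Over the whole list 5 genes were apart in that direction (Atp6v1h is the fifth), against 19.2% of all genes kept. Ctsz had 34292, 29819 and 36978 normalised reads without LPS and 68584, 41257 and 43018 with it. Replicate 1 held the highest value, and the difference of 0.56 (SE 0.23) did not pass limma's test (adjusted p = 0.105). Ctsb had 61064, 56484 and 63007 without LPS and 81583, 78000 and 65933 with it, a difference of 0.32 (SE 0.27) with an adjusted p of 0.45 in limma. The median difference over the 10 proteases was 0.03, and that over all 37 genes was 0.02, against -0.02 over all genes kept. Differences below 0 made up 17 of the 37, against 52.0% of all genes kept.

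The ranges of 2 genes were apart in the lower direction, Tcfeb and Lipa, against 18.3% of all genes kept. Lipa encodes lysosomal acid lipase, which splits cholesteryl esters and triglycerides. It had 6070, 4639 and 5030 normalised reads without LPS and 3998, 4454 and 3169 with it in control siRNA cells, a difference of -0.44 (SE 0.21, adjusted p = 0.161, limma). In Tet2 siRNA cells the values were 5009, 3091 and 3740 without LPS and 2078 and 2969 with it, a difference of -0.63 (SE 0.24, adjusted p = 0.116, limma). Both LPS groups thus lay wholly below their untreated groups, and neither difference passed the test.

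Among glycosidases, lipid enzymes and carriers, and membrane proteins with granulin no gene passed the test with LPS in control siRNA cells. All 7 glycosidases had differences above 0, from 0.02 for Neu1, a sialidase, to 0.25 for Gla, with a median of 0.11. The 7 lipid enzymes and carriers had a median of -0.18, and the 7 membrane proteins with granulin one of 0.11. In the pump, the 4 genes other than Atp6v1h ranged from -0.29 (Atp6v0d2) to 0.13 (Atp6v0d1). The direction of the whole list depended on the scaling. Of the 37 differences 20 were above 0 with the deposited values, but 4 after quantile normalisation. There 33 were below 0, against 58.6% of all genes kept, and the median was -0.30 against -0.09 for all genes kept. In that setting 0 genes of the list were called higher, against 1332 of all 12486 genes kept. Called lower were 4 of the 37 (Tcfeb, Cd68, Lipa and Atp6v1a), against 1467 of the 12486.

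In Tet2 siRNA cells Tcfeb was the 1 gene of the list that passed the test with LPS, against 11.9% of all genes kept. It was lower, as were 4.77% of all genes kept. No gene passed as higher by limma, where 7.14% of all genes kept did, and none did by voom (limma's method for reads). An unadjusted p under 0.05 was reached by 2 of the 37 genes, Tcfeb and Lipa, against 2743 of all 12486 genes kept (22.0%). The ranges of 3 genes were apart in the lower direction (Lipa, Tcfeb and Scarb2, the carrier of glucocerebrosidase), against 21.3% of all genes kept, and that of Ctsc in the higher one, against 21.9%. For Ctsc the values were 4903, 4733 and 5354 without LPS and 5853 and 7544 with it, a difference of 0.41 (SE 0.19, adjusted p = 0.241, limma). Psap, with 41979, 22339 and 31413 without LPS and 16359 and 27968 with it, differed by -0.53 (SE 0.28, adjusted p = 0.306). Lgmn, the asparaginyl endopeptidase legumain, had 29697, 16175 and 22407 without LPS and 11544 and 20466 with it, a difference of -0.52 (SE 0.28, adjusted p = 0.326). Both genes overlapped between groups. Differences below 0 made up 31 of the 37, against 50.2% of all genes kept. The median over the 37 genes was -0.22, and it was 0.15 without replicate 2 of siTet2_LPS and -0.52 without replicate 3, so its direction rests on replicate 2.

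**Figure D3:**
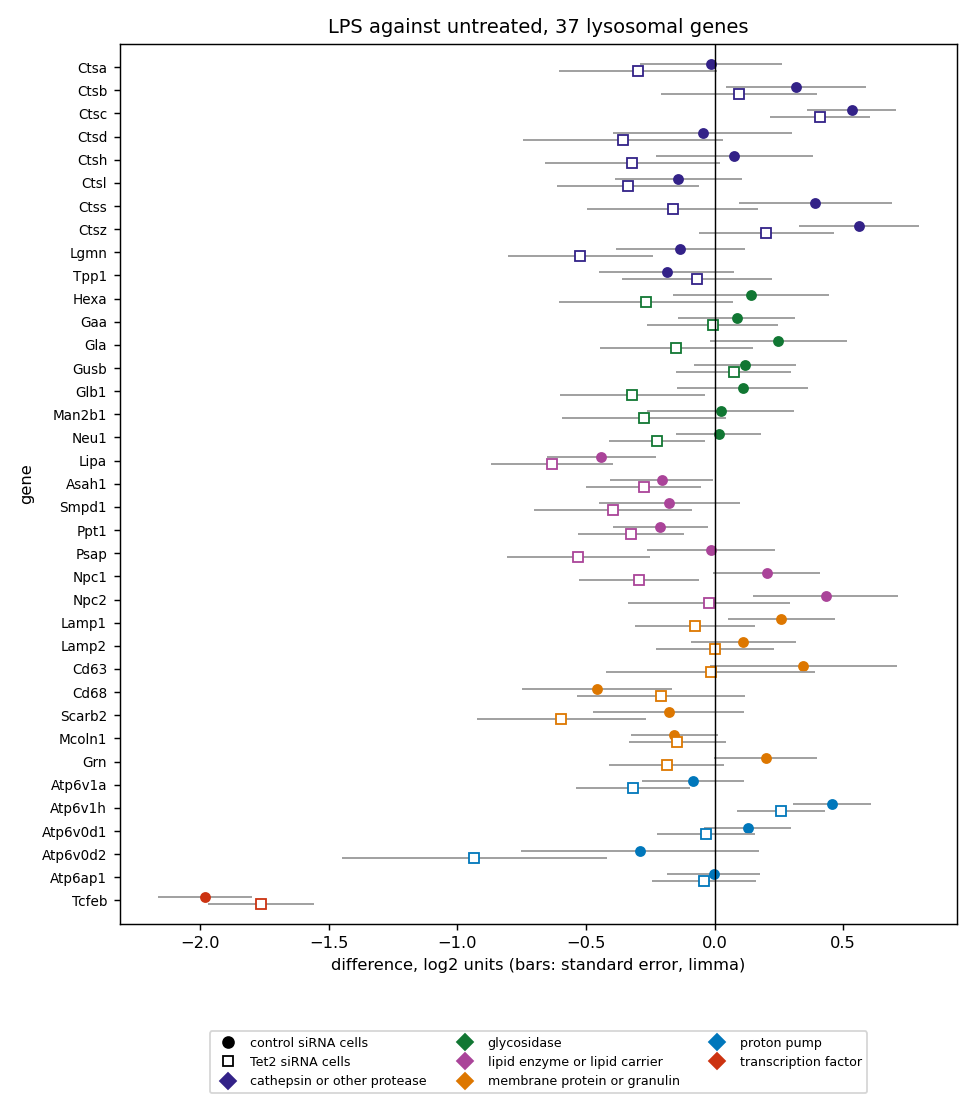
For each of the 37 genes the log2 difference between LPS-treated and untreated cells is shown with its standard error from limma, as filled circles for control siRNA and open squares for Tet2 siRNA, coloured by role. Tcfeb lies near -2 in both, at -1.98 and -1.76, and the other genes lie between -0.93 and 0.56.

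The 5 genes with TCACGTGA were not called with LPS in either siRNA group. Of all genes kept 23.7% were called in control siRNA cells and 11.9% in Tet2 siRNA cells, so 5 genes are too few for a lack of calls to say much. In control siRNA cells their differences were -0.02 for Ctsa (protective protein/cathepsin A), -0.05 for Ctsd (the aspartic protease cathepsin D), 0.25 for Gla, -0.16 for Mcoln1 and -0.09 for Atp6v1a (the catalytic subunit of the pump). Limma's adjusted p lay between 0.558 and 0.978. In Tet2 siRNA cells the values were -0.30, -0.36, -0.15, -0.14 and -0.32 in the same order, with limma's adjusted p between 0.496 and 0.88. Among the 3 genes that were called, the promoter entries of Tcfeb and Ctsc hold neither TCACGTGA nor CACGTG, and Atp6v1h has no entry.

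Pathway lists around the 37 genes are read against 13.2% of all genes kept called higher and 10.4% called lower with LPS in control siRNA cells (23.7% in all), and 11.9% called in Tet2 siRNA cells. Of 19 genes tested among the TFEB relatives, Ragulator, the Rag GTPases and their regulators, 3 were higher and 4 lower with LPS in control siRNA cells. Tfec (as Tcfec) and Mitf, both relatives of TFEB, rose by 1.01 (SE 0.20, adjusted p = 0.00205) and 0.84 (SE 0.18, adjusted p = 0.00413) in limma. Rheb, the GTPase that activates mTORC1, rose by 0.47 (adjusted p = 0.0435). Flcn, the folliculin that acts on RagC and RagD, fell by 1.05, its partner Fnip2 by 0.74, Rragd (RagD) by 0.74 and Zkscan3, a repressor of autophagy genes, by 0.54 (adjusted p 0.00205 to 0.0457, limma). With Tet2 siRNA, Tfec (1.5) and Mitf (0.83) rose, and Flcn (-0.95), Rragd (-0.99) and Fnip2 (-0.91) fell. Tfe3, read through the row Tcfe3, had 1674 ± 410 (SD, n = 3) normalised reads in siScr_Ctrl, 1757 ± 239 (SD, n = 3) in siScr_LPS, 1413 ± 75.4 (SD, n = 3) in siTet2_Ctrl and 1646 ± 29.2 (SD, n = 2) in siTet2_LPS, and did not pass the test in either LPS comparison (0.09 and 0.22 on the log2 scale, adjusted p = 0.775 and 0.648, limma).

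Of 33 other lysosomal membrane proteins and transporters tested, 5 were higher and 4 lower with LPS in control siRNA cells. The iron transporter Slc11a2 rose by 2.75 (SE 0.17), the channel Mcoln2, a relative of Mcoln1, by 2.02 (SE 0.17), the chloride transporter Clcn7 by 1.29 (SE 0.19) and Cln3 by 1.11 (SE 0.26), with limma's adjusted p from 1.584e-07 to 0.00825. The 2-pore channel Tpcn1 fell by 1.26, the cystine transporter Ctns by 1.00, the amino acid transporter Slc36a1 by 0.68 and the sialic acid transporter Slc17a5 by 0.79. In Tet2 siRNA cells 4 were higher and 3 lower, with Slc11a2 at 2.45, Mcoln2 at 1.77, Clcn7 at 1.04 and Cln3 at 1.08, and Slc17a5 at -0.93, Tpcn1 at -0.92 and Ctns at -0.97. Mcoln1, the channel of the list in the same family as Mcoln2, had 931, 893 and 1113 normalised reads without LPS and 972, 861 and 789 with it in control siRNA cells and did not pass the test.

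Of 36 entries for other hydrolases and their activators, 2 were higher and 3 lower with LPS in control siRNA cells. The gene Cpq was entered under 2 symbols, Cpq and Pgcp. Here and below it counts as 2 of the 36 if its row passed the filter. The acid phosphatases Acp5 (1.34, SE 0.35) and Acp2 (0.69, SE 0.17) rose, and the heparan sulfatase Sgsh (-1.44, SE 0.16), the prenylcysteine oxidase Pcyox1 (-0.75, SE 0.15) and the sulfatase Arsg (-0.72, SE 0.22) fell, with limma's adjusted p from 2.782e-05 to 0.0276. The counts were the same in Tet2 siRNA cells, where Acp5 was at 1.45, Acp2 at 0.75, Sgsh at -1.33, Pcyox1 at -0.91 and Arsg at -1.12. Of 14 other V-ATPase subunits 1 was higher in control siRNA cells, Tcirg1, the a3 subunit of V0 (0.72, SE 0.17, adjusted p = 0.00706, limma), and 0 of 14 were called in Tet2 siRNA cells.

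Of 17 genes of sorting receptors, mannose 6-phosphate tagging and protease inhibitors, 2 were higher and 1 lower in control siRNA cells: the mannose 6-phosphate receptor M6pr rose by 0.63 and the adaptor subunit Ap3b1 by 0.48, and the adaptor Gga3 fell by 0.53 (limma, adjusted p 0.00654 to 0.0213). None of the 17 was called in Tet2 siRNA cells. Of 31 autophagy genes, 3 were higher and 3 lower in control siRNA cells. The receptors Sqstm1 (2.24, SE 0.23), Optn (1.89, SE 0.24) and Tax1bp1 (0.96, SE 0.18) rose, and Uvrag (-1.23, SE 0.17), Rubcn (-0.74, SE 0.20, listed as 1700021K19Rik) and Vps33a (-0.40, SE 0.12) fell, with limma's adjusted p from 1.206e-05 to 0.0326. With Tet2 siRNA, Sqstm1 (1.46) and Optn (1.38) rose, and Uvrag (-0.87) and the receptor Nbr1 (-0.83) fell.

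With Tet2 siRNA no gene of the list passed the test, in untreated or in LPS-treated cells, and nearly all differences lay below 0. In untreated cells 35 of the 37 differences were below 0, against 53.1% of all genes kept, with a median of -0.34 against -0.03. Of all genes kept 0.00801% were called lower and 0.0% higher in that comparison. By limma and by voom alike 0 of the 37 were called and 5 (13.5%) had an unadjusted p under 0.05, close to the 1354 of all 12486 genes kept (10.8%) in limma. The ranges of 5 of the 37 (13.5%) were apart and lower, against 9.82% of all genes kept: Ctsh and the glycosidases Gaa, Glb1, Man2b1 and Neu1. None was apart and higher, against 7.82%.

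Ctsh had 2784, 2201 and 3146 normalised reads in siScr_Ctrl and 2007, 986 and 1525 in siTet2_Ctrl, a difference of -0.88 (SE 0.30, adjusted p = 0.395, limma). Man2b1, the acid alpha-mannosidase, had 2864, 2482 and 3748 against 2205, 1451 and 1812, a difference of -0.72 (SE 0.29, adjusted p = 0.42). Glb1, acid beta-galactosidase, had 2789, 2663 and 3468 against 2197, 1345 and 2086, a difference of -0.68 (SE 0.25, adjusted p = 0.404). In each of these genes all siTet2_Ctrl libraries lay below all siScr_Ctrl libraries, and replicate 2 was the lowest. Gaa, the acid alpha-glucosidase that degrades glycogen, had 3231, 2892 and 4509 against 2704, 1806 and 2381, a difference of -0.61 (SE 0.23, adjusted p = 0.404). Cd68 had 15079, 17211 and 36107 against 16747, 10329 and 11862, a difference of -0.73 (SE 0.29, adjusted p = 0.422, limma), and its groups overlapped. Its high mean in siScr_Ctrl came from replicate 3, the library with 16406 genes detected against 12866 to 14180 in the others. The glycosidases had the lowest median of the classes, -0.54, ahead of the proteases (-0.37), lipid enzymes and carriers (-0.35), membrane proteins with granulin (-0.32) and the pump (-0.29).

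Without replicate 2 of siTet2_Ctrl the median over the 37 genes in untreated cells was -0.14, 31 differences were below 0 and none had an unadjusted p under 0.05 in limma. Without replicate 1 of siTet2_Ctrl the median was -0.51 and 16 genes had an unadjusted p under 0.05, and without replicate 3 of siScr_Ctrl the median was -0.32 and 1 gene did. The count was 3 without replicate 3 of siTet2_Ctrl, 3 with no filter and 12 with the replicate number as a block. The summed levels of markers of microglia and macrophages did not overlap between the siRNAs. Summed normalised reads of the 10 markers ranged from 40578 to 42508 in siScr_Ctrl, 44636 to 52001 in siScr_LPS, 22629 to 31997 in siTet2_Ctrl and 25762 to 35268 in siTet2_LPS. All 10 markers had differences below 0 with Tet2 siRNA in both treatments and 0 were called by limma. Of all genes kept 53.1% were below 0 in untreated cells and 52.7% in LPS-treated cells. Marker ranges were apart and lower for 8 of the 10 in untreated cells, against 9.82% of all genes kept. In LPS-treated cells they were for 7 of the 10, against 21.0%. The part of these markers in the result was not tested. All cells were of the BV2 line, and fewer cells with high levels cannot be told apart in bulk RNA from lower levels in every cell.

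In LPS-treated cells 36 of the 37 differences between Tet2 siRNA and control siRNA were below 0, against 52.7% of all genes kept, with a median of -0.60 against -0.02. The ranges of 26 of the 37 (70.3%) were apart and lower, against 21.0% of all genes kept, and 0 were apart and higher, against 17.9%. None was called by limma, where 0.0% of all genes kept were, nor by voom, and 21 of the 37 had an unadjusted p under 0.05, against 2131 of all 12486 genes (17.1%). That count of 21 was 14 with no filter and 8 after quantile normalisation. The exception in direction was Tcfeb, at 0.10 (SE 0.21, adjusted p = 0.839, limma). Under the other scalings of the values 33 to 36 of the 37 differences were below 0 in LPS-treated cells and 35 to 36 in untreated cells. Both comparisons use different libraries.

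Ctsh had 4120, 2263 and 2429 normalised reads in siScr_LPS and 833 and 1591 in siTet2_LPS, a difference of -1.27 (SE 0.34, adjusted p = 0.122, limma). Glb1 had 3690, 2894 and 3031 against 1025 and 2087, and the mean was 48.6% of the control. Its difference was -1.10 (SE 0.28, adjusted p = 0.122, limma). Man2b1 had 4494, 2553 and 2442 against 1056 and 2071, a difference of -1.02 (SE 0.32, adjusted p = 0.15). In these 3 genes, as in the list at large, replicate 2 was the lower of the 2 siTet2_LPS libraries and replicate 3 lay closer to the control. Psap had 43626, 37994 and 35794 against 16359 and 27968, a difference of -0.87 (SE 0.28, adjusted p = 0.159). Ctsz had 68584, 41257 and 43018 against 24826 and 35169, a difference of -0.75 (SE 0.26, adjusted p = 0.192, limma).

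By role, ranges were apart and lower for 9 of the 10 proteases (all but Tpp1, a tripeptidyl peptidase), 6 of the 7 glycosidases (all but Neu1), 5 of the 7 lipid enzymes and carriers (all but Asah1, acid ceramidase, and Ppt1, a thioesterase), 5 of the 7 membrane proteins with granulin (all but Lamp1 and Lamp2) and 1 of the 5 genes of the pump, Atp6v1a. The class medians were -0.67, -0.71, -0.62, -0.48 and -0.32 in that order. Lamp1, the other major membrane glycoprotein, had 15695, 19587 and 19225 normalised reads in siScr_LPS and 14691 and 19041 in siTet2_LPS, a difference of -0.11 (SE 0.23). Grn, the gene of progranulin, which lysosomes process to granulins, had 26307, 23432 and 20364 against 11931 and 18994, a difference of -0.63 (SE 0.22, adjusted p = 0.195, limma). Npc2, whose product hands cholesterol to the membrane protein encoded by Npc1, had 18093, 13011 and 10928 against 5419 and 9996, a difference of -0.89 (SE 0.32).

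The size of these differences depended on which siTet2_LPS library was used. Without replicate 2 the median over the 37 genes was -0.30, 35 differences were still below 0, none had an unadjusted p under 0.05 and the smallest adjusted p was 0.997 in limma, with a lone library taken to vary like those of the other groups. Without replicate 3 the median was -0.96 and 25 genes had an unadjusted p under 0.05. Without replicate 1 of siScr_LPS the median was -0.52 and 10 genes did. Without both Tet2 siRNA libraries numbered 2 the medians were -0.14 in untreated and -0.30 in LPS-treated cells. The depth of replicate 2 of siTet2_Ctrl was the lowest of all, 8739716 reads. Replicate 3 of siScr_Ctrl had a similar depth, 8764031 reads, and the highest share of reads on the 37 genes, 3.22%. Replicate 2 of siTet2_LPS had 21958270 reads and the lowest share, 1.52%. A part of depth in these differences was not tested.

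In the other lysosomal lists, too, 0 genes were called with Tet2 siRNA. The median differences in untreated and LPS-treated cells were -0.46 and -0.55 over the 36 other hydrolases, -0.25 and -0.30 over the 33 other membrane proteins and transporters, -0.27 and -0.15 over the 14 other V-ATPase subunits, -0.20 and -0.27 over the 17 sorting genes, -0.19 and -0.24 over the 31 autophagy genes, and -0.07 and -0.02 over the 19 genes around TFEB and the Rag GTPases. At an unadjusted p under 0.05 stood 15 of the 36 other hydrolases (41.7%) in untreated and 19 (52.8%) in LPS-treated cells, against 10.8% and 17.1% of all genes kept. The other lists had lower shares. In the same order these were 18.2% and 24.2% of the membrane proteins and transporters, 21.4% and 35.7% of the V-ATPase subunits, and 23.5% and 35.3% of the sorting genes. They were 9.68% and 19.4% of the autophagy genes, and 0 of the 19 genes around TFEB and the Rag GTPases in either treatment.

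The LPS response of the 37 genes was not shown to differ between the siRNA groups. None of the 37 passed the test of that difference in limma or in voom, where 0.0% of all genes kept did, and none had an unadjusted p under 0.05, against 281 of all genes kept. Of the 37 differences 33 were below 0, against 50.6% of all genes kept, with a median of -0.24 that was 0.06 without replicate 2 of siTet2_LPS and -0.59 without replicate 3. It also depended on the scaling. After quantile normalisation 25 differences were below 0 with a median of -0.09, and with each library centred on its median 33 were, with a median of -0.25. With the replicate number as a block 31 were below 0 and the median was -0.14. The smallest p belonged to Npc1 (-0.50, SE 0.31), Psap (-0.52, SE 0.37), Grn (-0.38, SE 0.30), Ctss (-0.55, SE 0.45) and Glb1 (-0.43, SE 0.38), each with an adjusted p of 0.9997 in limma. Ctss had 23123, 20275 and 14882 normalised reads without LPS and 24439, 25098 and 25723 with it in control siRNA cells, and 26014, 11737 and 20956 without LPS and 12024 and 22868 with it in Tet2 siRNA cells.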

How the data were processed

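The submitters' processing notes name Trim Galore 0.3.3, TopHat2 2.0.9, DESeq2 and the genome build mm9. The read counter, annotation and strand setting are not given in these sources, so overlapping and antisense genes are uncertain. The deposited table holds variance-stabilised log2 values (file name and values), in which 4.02 stands for 0 reads. The inverse transform returned whole reads in 100% of values (within 0.01) and, from these, the normalised reads.

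The tests used limma 3.58.1 (R 4.3.3) on the deposited log2 values, in a single fit of all 11 libraries with a mean per group and a variance trend, adjusted by Benjamini-Hochberg over 12486 genes. At low reads this scale understates differences. Described in full are the genes called, or else the 5 with the smallest p, and called genes of each pathway list. Promoter stretches were to be printed for called genes with the motif; as none with an entry holds it, the 5 holders of TCACGTGA are printed. The members, lists and tests were chosen with earlier results of these data known. Alternatives were other filters and scalings, voom on the reads, a replicate block, fits of only the groups compared and leaving out libraries. Lengths are of the longest GENCODE vM21 coding transcript. The size of change that would pass was not tested for genes that are low together in whole libraries, as many genes of the list were. With Tet2 siRNA in LPS-treated cells, log2 differences of -1.27 for Ctsh and -1.02 for Man2b1 did not pass. Their adjusted p was 0.122 and 0.15 in limma. A lack of calls therefore does not show that such changes are absent.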

Additional observations from a re-analysis of the deposited data

How the results depend on the processing

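The 19 alternative settings chosen at first and the 2 chosen after the data had been seen left Tcfeb lower with LPS in control siRNA cells (-2.40 to -1.87, adjusted p 3.522e-06 to 0.0002712, limma) and in Tet2 siRNA cells (-2.13 to -1.62, adjusted p 5.062e-05 to 0.002723), and 0 of the 37 genes called with Tet2 siRNA in either treatment. The 2 genes called higher with LPS in control siRNA cells became 0 with no filter, with quantile normalisation, with each library centred on its median, in a fit of only the groups compared, and (chosen after) without replicate 3 of siScr_Ctrl and replicate 1 of siScr_LPS. They became 1 without both Tet2 siRNA libraries numbered 2 (chosen after), and 0 to 2 with 1 library left out: the Ctsc call ended without replicate 2 or 3 of siScr_Ctrl, replicate 2 or 3 of siScr_LPS or any siTet2_Ctrl library (0.37 to 0.58, adjusted p 0.0502 to 0.121, limma), and the Atp6v1h call without any siScr library or replicate 1 or 3 of siTet2_Ctrl (0.37 to 0.52, adjusted p 0.0546 to 0.11). Quantile normalisation called 4 of the 37 genes lower with LPS in control siRNA cells and 2 in Tet2 siRNA cells, in place of 1 and 1. Over all 12486 genes kept it called 1467 and 723 lower, in place of 1304 and 596. For Glb1 the difference between LPS responses turned from -0.43 to 0.074 without replicate 2 of siTet2_LPS, and was -0.93 without replicate 3. The causes were not tested. With the replicate number as a block 2 genes were again called higher with LPS in control siRNA cells, Atp6v1h and Ctsz (adjusted p = 0.0402, limma) but not Ctsc (0.0527). The labels do not say whether equal numbers mark paired libraries, and the main fit did not pair them. Deviations from the group mean correlated between -0.28 and 0.63 over 15 pairs of same-numbered libraries (median 0.11). Those of other pairs correlated between -0.63 and 0.55 over 30 (median -0.03). Deviations within a group sum to 0, and those of the 2 siTet2_LPS libraries mirror each other, so these ranges cannot decide on pairing. Between untreated and LPS-treated Tet2 siRNA cells, libraries numbered 2 gave 0.63 and those numbered 3 gave 0.24. In control siRNA cells the numbers 1, 2 and 3 gave -0.13, 0.46 and -0.28. The shallowest library had 8739716 reads, and a group of 2 libraries says little about its own spread.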
